A study of Arabidopsis thaliana with 12 samples.

Results

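The genes described here are the 46 nuclear genes for photosystem, electron transport and Rubisco proteins in Arabidopsis thaliana seedlings, out of 27655 genes with a level. They were chosen by gene identifier: the photosystem I antenna genes LHCA1 to LHCA6, the minor photosystem II antenna genes LHCB4 to LHCB6, PSA and PSB subunits, PETC, the plastocyanins PETE1 and PETE2, the ferredoxin FD2, the leaf ferredoxin reductases FNR1 and FNR2, the ATP synthase subunits ATPC1 and ATPD, the Rubisco small subunits RBCS and Rubisco activase RCA. The major antenna genes LHCB1 to LHCB3 are not among them. All 46 were found in the tables of both lines and none was at 0 in any library. All 46 passed the filter used for testing, a mean of at least 1 TPM in the line.

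RNA-seq was done on seedlings of a pair of double mutants, flu1-5 ex1 and flu1-1 ex1, with 3 libraries in each of 4 groups. FLU restrains chlorophyll synthesis in darkness, and in flu mutants a chlorophyll precursor accumulates in the dark and produces singlet oxygen upon illumination. The lines carry different flu alleles, and all 4 groups also carry ex1, a mutation of EXECUTER1, a chloroplast protein of the singlet oxygen response. After 2 days at 4 °C, plants grew in continuous light at 22 °C to an age of 6 days. The groups were flu1-5 ex1 seedlings kept dark for 4 h and then lit for 1 h (flu1-5 ex1 light), flu1-5 ex1 seedlings taken at the end of the 4 h dark period (flu1-5 ex1 dark), and the same 2 treatments of flu1-1 ex1 (flu1-1 ex1 light and flu1-1 ex1 dark). About 100 seedlings were pooled in each replicate, per the file headers. No group lacked the flu or ex1 mutations, and none stayed dark for the further 1 h, so responses to singlet oxygen, to light and to elapsed time cannot be told apart. The labels do not state whether replicates came from separate cultures, so the p-values reflect sample-to-sample spread that could be technical.

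Levels are in TPM, a relative abundance of transcripts corrected for their length and scaled to a fixed total, which keeps no trace of read number, so the depth is unknown. Libraries of one group had Pearson r of 0.996 to 0.9964 with each other over genes, which are not independent replicates. FLU (AT3G14110), the gene that should separate the lines, stood at 16.97, 14.05 and 15.4 TPM in flu1-5 ex1 light and 13.2, 13.8 and 15.5 TPM in flu1-5 ex1 dark. In flu1-1 ex1 it stood at 193, 189.9 and 189.9 TPM in light and 197, 184 and 189.6 TPM in dark, so the 6 libraries of one line lay far from the 6 of the other. The genotype field of the labels names flu1-1 for all 12 libraries, and the grouping follows the library descriptions. Of 7 root markers, 5 (COBL9, EXPA7, LRX1, CASP1 and NIP2-1) stayed below 1 TPM in every library. The summed level of the 7 was 2.87 to 4.15 TPM in flu1-5 ex1 light, 4.97 to 7.27 TPM in flu1-5 ex1 dark, 4.01 to 5.08 TPM in flu1-1 ex1 light and 6.44 to 7.41 TPM in flu1-1 ex1 dark. These sums are low, and how much root tissue the samples held was not tested. Because each library pools seedlings with many cell types, fewer cells of a type and less RNA per cell cannot be told apart.

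In the thylakoid membrane, antenna proteins pass light energy to photosystem II and photosystem I. Electrons from water move through photosystem II, the cytochrome b6f complex and plastocyanin to photosystem I, and then through ferredoxin and its reductase to NADPH, while ATP synthase uses the proton gradient. Rubisco fixes carbon dioxide with that energy, and its small subunit, like all proteins described here, is encoded in the nucleus and imported into the chloroplast. Nuclear photosynthesis genes are known for strong expression in green leaves and for control by light and by signals from the chloroplast.

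Some members fell strongly in light while a close copy fell little or not detectably. The stretches before the transcription start sites of such pairs are shown to set the copies side by side, with those of LHCA1 and LHCA4. The windows are the 250 bases upstream of the annotated start in RefSeq's annotation of TAIR10.1, matched by locus tag, each printed 5′ to 3′ on the gene's own strand. LHCA1 (chr3:20341177-20341426, minus strand) and LHCA4 (chr3:17495034-17495283, minus strand) are the antenna genes with the largest falls in flu1-1 ex1. PSAD2 (chr1:754263-754512, minus strand) and PETE1 (chr1:28554931-28555180, minus strand) fell strongly, and their copies PSAD1 (chr4:1230165-1230414, minus strand) and PETE2 (chr1:7043393-7043642, minus strand) did so little or not detectably. Capitals mark letters of 3 motifs known from plant light-regulated promoters, on either strand: the G-box CACGTG, the I-box GATAAG and CCAATC, reported as an element bound by GLK factors, which holds the letters of the CCAAT box.
LHCA1: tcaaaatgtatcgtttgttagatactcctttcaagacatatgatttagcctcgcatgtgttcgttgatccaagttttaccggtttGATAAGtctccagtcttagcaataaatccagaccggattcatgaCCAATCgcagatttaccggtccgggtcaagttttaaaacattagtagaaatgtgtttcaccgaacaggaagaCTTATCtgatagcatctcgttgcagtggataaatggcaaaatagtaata
LHCA4: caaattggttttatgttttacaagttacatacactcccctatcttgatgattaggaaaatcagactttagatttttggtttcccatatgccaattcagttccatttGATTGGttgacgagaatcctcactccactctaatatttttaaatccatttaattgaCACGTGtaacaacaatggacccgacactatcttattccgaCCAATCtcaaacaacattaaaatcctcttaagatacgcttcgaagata
PSAD2: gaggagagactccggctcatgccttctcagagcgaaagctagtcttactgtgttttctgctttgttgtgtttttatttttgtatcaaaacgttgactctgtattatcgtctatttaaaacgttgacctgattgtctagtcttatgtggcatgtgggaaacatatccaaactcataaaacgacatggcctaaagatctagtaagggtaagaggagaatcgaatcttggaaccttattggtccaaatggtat
PSAD1: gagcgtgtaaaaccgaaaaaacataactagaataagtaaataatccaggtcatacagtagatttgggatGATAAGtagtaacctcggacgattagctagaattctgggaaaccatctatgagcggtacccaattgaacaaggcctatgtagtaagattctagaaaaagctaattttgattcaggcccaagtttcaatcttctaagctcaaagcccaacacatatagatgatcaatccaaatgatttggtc
PETE1: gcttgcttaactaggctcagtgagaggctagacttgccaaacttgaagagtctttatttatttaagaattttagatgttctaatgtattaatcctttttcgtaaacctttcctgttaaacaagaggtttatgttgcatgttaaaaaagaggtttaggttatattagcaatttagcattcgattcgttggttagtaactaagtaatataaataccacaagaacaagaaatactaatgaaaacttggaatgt
PETE2: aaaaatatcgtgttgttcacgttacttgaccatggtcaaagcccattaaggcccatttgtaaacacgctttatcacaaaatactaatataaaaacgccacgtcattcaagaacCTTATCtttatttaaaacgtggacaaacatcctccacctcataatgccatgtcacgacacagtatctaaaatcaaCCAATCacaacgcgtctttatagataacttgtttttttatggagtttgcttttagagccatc

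The LHCA1 window holds 2 I-boxes and 1 CCAATC, and the LHCA4 window 1 G-box and 2 CCAATC. The windows of PSAD2 and PETE1 hold none of the 3 motifs, whereas PSAD1 has 1 I-box and PETE2 has 1 I-box and 1 CCAATC. Over all 46 members, 10 windows (21.7%) hold a G-box, against 6.49% of 27443 genes with such a window. An I-box was found in 13 members (28.3%), against 12.3% of genes, and CCAATC in 10 members (21.7%), against 10.2% of genes. No test was made of these shares, and a match of letters is a description of the window.

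The first comparison set light against dark within each line. In flu1-5 ex1 light, 35 of the 46 members were lower than in dark and 5 were higher (limma, Benjamini-Hochberg adjusted p under 0.05). Over all genes tested in that line, 67.8% were called, 29.3% lower and 38.4% higher. In flu1-1 ex1 light, 37 members were lower and 4 higher, where 72.6% of all genes were called, 28.6% lower and 44% higher. The median log2 change of the members was -0.21 in flu1-5 ex1 and -0.33 in flu1-1 ex1, beside 0.054 and 0.12 over all genes tested. The falls were modest: 1 member in flu1-5 ex1 (PETE1) and 4 in flu1-1 ex1 (LHCA1, LHCA4, LHCB4.2 and PETE1) were at least 2-fold lower, where 5.08% and 6.61% of all genes were, and no member was at least 2-fold higher, where 9.98% and 11.7% of all genes were. The 2 lines share no library in these comparisons, and 32 members were lower in both, 4 (LHCB4.3, ATPC1, ATPD and RBCS1B) were higher in both, and RCA was called in opposite directions. How many of all genes were called alike in both lines was not counted, so these counts only describe the members. The direction of some calls rests on the scaling: with quantile normalization, which gives every library the same set of values, 25 members were lower and 8 higher in flu1-5 ex1, and 24 lower and 12 higher in flu1-1 ex1. Of all genes tested with it, 7016 of 18145 were lower and 5649 higher in flu1-5 ex1, and 6751 of 18042 lower and 6386 higher in flu1-1 ex1. That normalization moved the median over all genes to -0.067 in flu1-5 ex1 and -0.024 in flu1-1 ex1.

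The members make up a large part of the seedling transcriptome. Together they held 10.2% to 10.5% of the listed TPM in flu1-5 ex1 light, against 11.6% to 11.8% in flu1-5 ex1 dark. In flu1-1 ex1 they held 9.67% to 9.95% in light, against 11.6% to 12.2% in dark. The light libraries lay below the dark ones in both lines. Averaged over the 12 libraries, 10 members were among the 20 most abundant of all genes and 34 among the 100 most abundant. RBCS1A ranked first among the members at 15399 to 17855 TPM, and LHCB4.3 last at 42.3 to 83.3 TPM. Because TPM values in a library sum to a fixed total, a fall of such abundant genes raises the share of all others. Scaled to nuclear genes outside the 46, 37 members were lower and 4 higher in flu1-5 ex1, and 41 lower and 4 higher in flu1-1 ex1. Of all genes tested so, 5663 of 18145 were lower and 6664 higher in flu1-5 ex1, and 5557 of 18042 lower and 7468 higher in flu1-1 ex1.

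**Figure D1:**
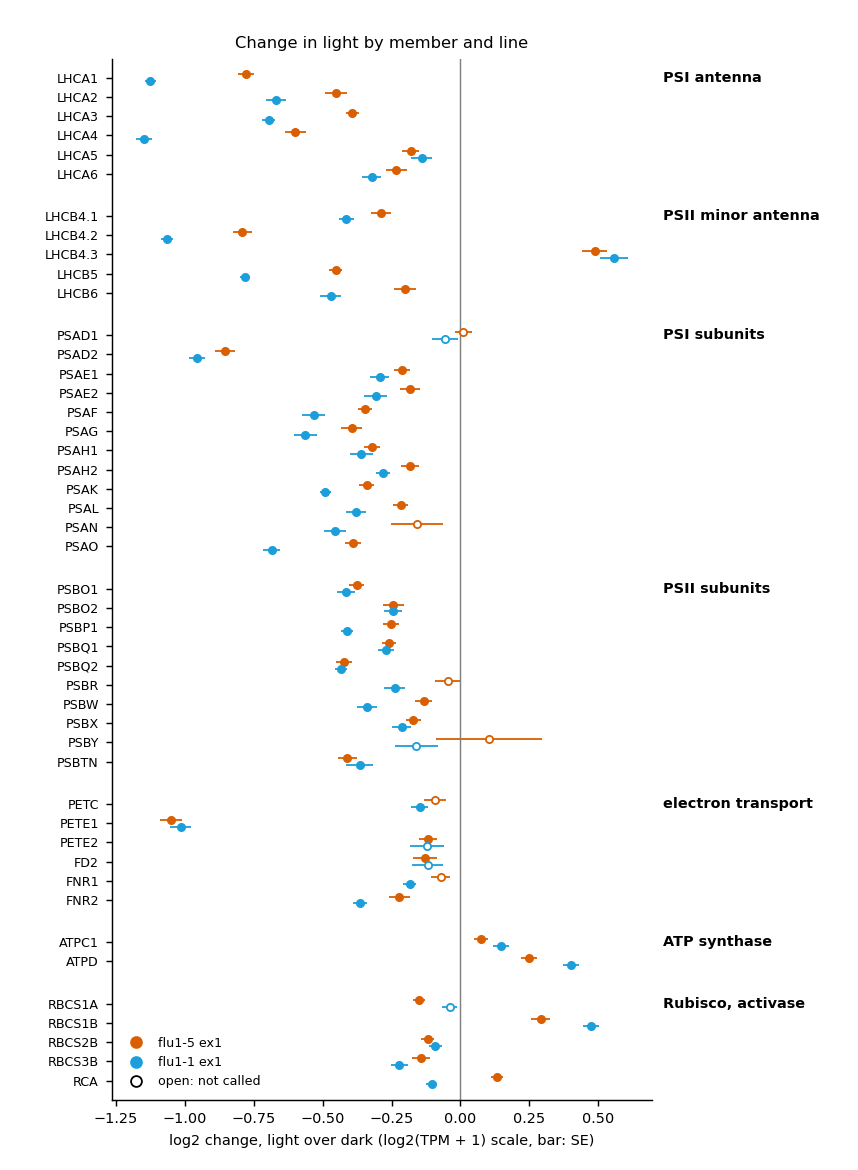
Log2 change, light over dark, of each of the 46 members on the log2(TPM + 1) scale (x axis), grouped by role down the page, with bars for the standard error; filled points passed adjusted p under 0.05 in limma, orange for flu1-5 ex1 and blue for flu1-1 ex1. Most points lie left of 0, with PETE1 at -1.05 in flu1-5 ex1 and LHCA4 at -1.15 in flu1-1 ex1 farthest left and LHCB4.3 farthest right. With quantile normalization 8 members in flu1-5 ex1 and 9 in flu1-1 ex1, named in the text, change sign and are called with it or without it.

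The photosystem I antenna genes fell together in both lines. LHCA1 to LHCA4 encode the belt of antenna proteins of photosystem I, and LHCA5 and LHCA6 are scarce relatives that link photosystem I to the NDH complex of cyclic electron flow. All 6 were lower in light in flu1-5 ex1 (median log2 change -0.42) and in flu1-1 ex1 (median -0.68), also under each other scaling. Their summed share of listed TPM was 0.536% to 0.557% in flu1-5 ex1 light, against 0.761% to 0.805% in flu1-5 ex1 dark. In flu1-1 ex1 it was 0.622% to 0.629% in light, against 1.11% to 1.17% in dark. The light share was below the dark share in every library of both lines.

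LHCA1 (AT3G54890) had 998, 1023 and 1038 TPM in flu1-5 ex1 light, against 1735, 1800.4 and 1716 TPM in flu1-5 ex1 dark. Its level in flu1-1 ex1 was 1346, 1332 and 1361 TPM in light, against 2952, 2973 and 2892 TPM in dark. The log2 change was -0.78 (SE 0.028, limma adjusted p = 2.99e-08) in flu1-5 ex1 and -1.13 (SE 0.021, limma adjusted p = 5.03e-10) in flu1-1 ex1. All 4 groups were apart from each other, with the dark level of flu1-1 ex1 the highest. LHCA4 (AT3G47470) had 866, 831 and 903 TPM in flu1-5 ex1 light, against 1263, 1324 and 1353 TPM in dark. The libraries of flu1-1 ex1 had 1096, 1109 and 1083 TPM of LHCA4 in light, against 2477, 2487 and 2334 TPM in dark. For LHCA4 the log2 change was -0.60 (SE 0.038, limma adjusted p = 1.19e-06) in flu1-5 ex1 and -1.15 (SE 0.029, limma adjusted p = 2.70e-09) in flu1-1 ex1. LHCA4 showed the same order of the 4 groups as LHCA1, again without overlap. In the authors' deposited table the ratio of light to dark for LHCA1 was 0.583 in flu1-5 ex1 and 0.458 in flu1-1 ex1.

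LHCA2 (AT3G61470) and LHCA3 (AT1G61520) changed less, by -0.45 and -0.39 on the log2 scale in flu1-5 ex1 and by -0.67 and -0.70 in flu1-1 ex1. LHCA2 shares 31-base stretches with the gene AT5G28450, and 84.9% of its own are unique to it, so part of its reads could be assigned to that gene. LHCA5 (AT1G45474) averaged 167 ± 4.61 TPM in flu1-5 ex1 light and 189 ± 3.44 TPM in flu1-5 ex1 dark (SD, n = 3 each). LHCA6 (AT1G19150) averaged 111 ± 5.04 TPM in flu1-5 ex1 light and 130.4 ± 0.874 TPM in flu1-5 ex1 dark (SD, n = 3 each). Both were several times scarcer than LHCA1 to LHCA4, with log2 changes from -0.14 (LHCA5 in flu1-1 ex1) to -0.32 (LHCA6 in flu1-1 ex1).

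**Figure D2:**
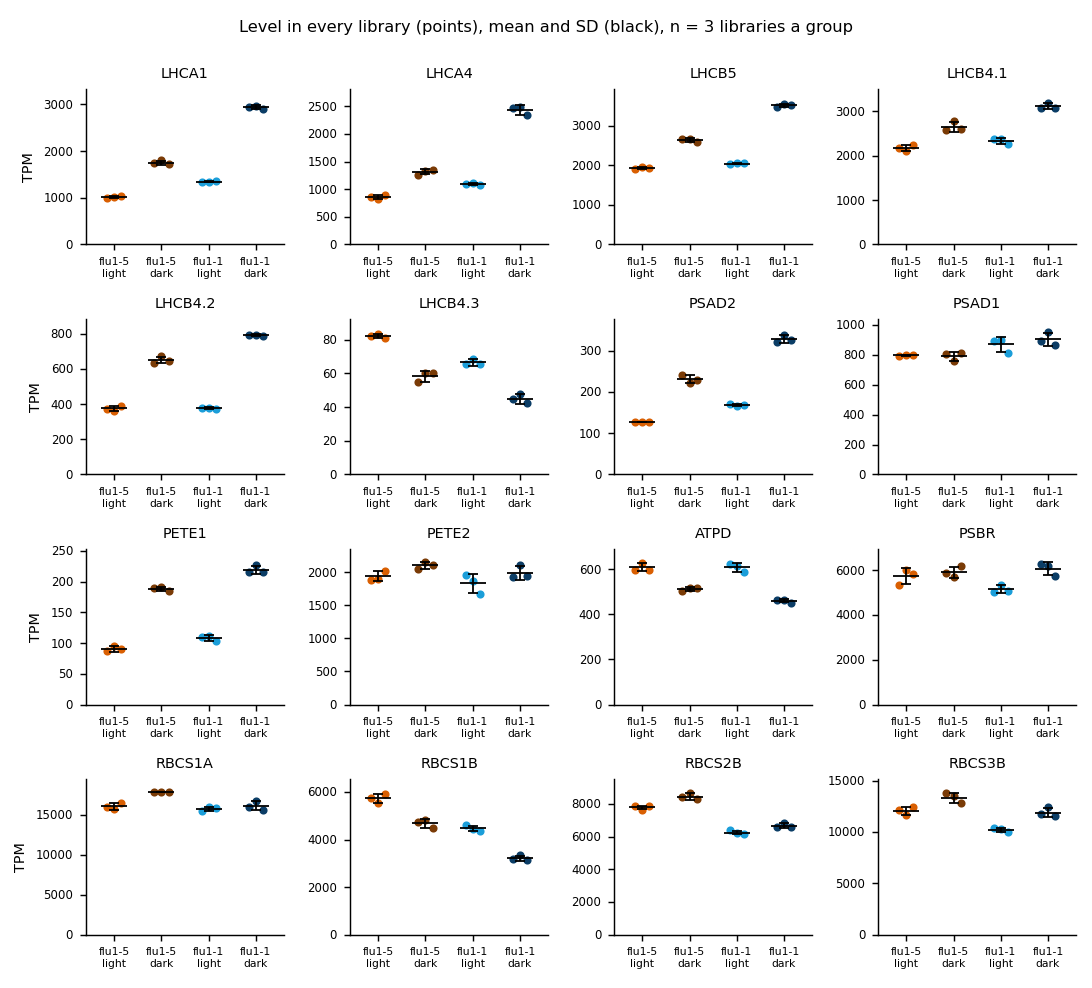
Level in TPM (y axis, from 0) of 16 members in each library (points), with the mean and SD of the 3 libraries of a group in black; groups run from flu1-5 ex1 light to flu1-1 ex1 dark. LHCA1, LHCA4, LHCB5, LHCB4.1, LHCB4.2, PSAD2 and PETE1 are lower in light than in dark in every library of both lines, with LHCB4.1 changing sign in flu1-5 ex1 under quantile normalization, whereas LHCB4.3, ATPD and RBCS1B are higher and PSAD1 overlaps.

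The minor antenna proteins LHCB4 (CP29), LHCB5 (CP26) and LHCB6 (CP24) link the major antenna to the photosystem II core. Of their 5 genes, 4 were lower and 1, LHCB4.3, was higher in light in each line, with medians of -0.29 in flu1-5 ex1 and -0.47 in flu1-1 ex1. LHCB4.1 (AT5G01530), the most abundant LHCB4 gene, had 2166, 2105 and 2238 TPM in flu1-5 ex1 light, against 2578, 2783 and 2598 TPM in dark. LHCB4.1 levels in flu1-1 ex1 were 2374, 2379.7 and 2261 TPM in light, against 3078, 3189 and 3083 TPM in dark. LHCB4.1 was lower in light, at -0.29 (SE 0.036, limma adjusted p = 0.000107) in flu1-5 ex1, where its direction flips with quantile normalization, and at -0.41 (SE 0.027, limma adjusted p = 1.23e-06) in flu1-1 ex1. Its light libraries lay below its dark libraries in both lines.

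LHCB4.2 (AT3G08940) had 374, 364 and 390.4 TPM in flu1-5 ex1 light, against 636, 673 and 646 TPM in dark. It had 379.8, 379.5 and 372 TPM in flu1-1 ex1 light, against 794, 793 and 784 TPM in dark. The log2 change of LHCB4.2 was -0.79 (SE 0.035, limma adjusted p = 1.14e-07) in flu1-5 ex1 and -1.07 (SE 0.022, limma adjusted p = 9.00e-10) in flu1-1 ex1. Its light levels overlapped between the lines, while its dark levels were higher in every flu1-1 ex1 library. LHCB4.3 (AT2G40100), the scarcest member, had 82.1, 83.3 and 80.96 TPM in flu1-5 ex1 light, against 54.6, 60.4 and 59.97 TPM in dark. Levels of LHCB4.3 in flu1-1 ex1 were 65.5, 68.6 and 65.3 TPM in light, against 44.5, 47.9 and 42.3 TPM in dark. LHCB4.3 rose by 0.49 (SE 0.045, limma adjusted p = 1.40e-05) on the log2 scale in flu1-5 ex1 and by 0.56 (SE 0.049, limma adjusted p = 9.49e-06) in flu1-1 ex1. It was the only minor antenna gene called higher in light, and the largest rise among the 46 members in both lines.

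LHCB5 (AT4G10340) had 1904, 1951 and 1937 TPM in flu1-5 ex1 light, against 2659.7, 2673 and 2598 TPM in dark. For flu1-1 ex1 the LHCB5 values were 2041, 2052 and 2050.5 TPM in light, against 3482, 3559 and 3519.5 TPM in dark. LHCB5 fell by 0.45 on the log2 scale in flu1-5 ex1 (SE 0.023, limma adjusted p = 2.86e-07) and by 0.78 in flu1-1 ex1 (SE 0.019, limma adjusted p = 2.37e-09). The 4 groups did not overlap. LHCB6 (AT1G15820) had 758, 735 and 799 TPM in flu1-5 ex1 light, against 848, 921 and 866 TPM in dark. In the flu1-1 ex1 libraries LHCB6 had 889, 991 and 971 TPM in light, against 1310.5, 1325 and 1312 TPM in dark. Its log2 change was -0.20 (SE 0.041, limma adjusted p = 0.00220) in flu1-5 ex1 and -0.47 (SE 0.039, limma adjusted p = 5.78e-06) in flu1-1 ex1. Within each line the light libraries were the lower ones.

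The photosystem I subunits form its stromal ridge (PSAD and PSAE, where ferredoxin docks), its plastocyanin docking side (PSAF and PSAN) and its rim (PSAG, PSAH, PSAK, PSAL and PSAO, of which PSAH, PSAL and PSAO are known for binding the mobile antenna). In flu1-5 ex1, 10 of the 12 genes were lower in light (median log2 change -0.27), and in flu1-1 ex1 11 of 12 were (median -0.42), with none higher in either line. PSAE2 is one whose fall flips in flu1-5 ex1 with quantile normalization. The called genes other than PSAD2 lay between -0.18 (PSAH2) and -0.39 (PSAG) in flu1-5 ex1. In flu1-1 ex1 they lay between -0.28 (PSAH2) and -0.69 (PSAO). PSAO (AT1G08380) averaged 1454 ± 29.7 TPM in flu1-5 ex1 light and 1906 ± 53.6 TPM in flu1-5 ex1 dark (SD, n = 3 each). PSAN (AT5G64040) was not called in flu1-5 ex1, with 1009, 1013 and 1109 TPM in light and widely spread values of 1002, 1218 and 1290.1 TPM in dark.

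The PSAD pair diverged. PSAD2 (AT1G03130) had 127, 128 and 126 TPM in flu1-5 ex1 light, against 242, 222 and 228 TPM in dark. PSAD2 levels in flu1-1 ex1 were 171, 166 and 168 TPM in light, against 319.8, 338 and 324 TPM in dark. This is a log2 change of -0.85 (SE 0.036, limma adjusted p = 8.16e-08) in flu1-5 ex1 and -0.96 (SE 0.029, limma adjusted p = 9.69e-09) in flu1-1 ex1, and the 4 groups of PSAD2 did not overlap. PSAD1 (AT4G02770) was several times more abundant and passed the limma test in neither line. Its deposited p-values, from a test not given, were under 0.05 in both lines, with ratios of light to dark of 1.007 in flu1-5 ex1 and 0.961 in flu1-1 ex1. PSAD1 had 790.5, 801 and 796 TPM in flu1-5 ex1 light and 805, 757 and 809 TPM in dark. The PSAD1 values of flu1-1 ex1 were 895, 898 and 814 TPM in light and 893, 951 and 867 TPM in dark. Its log2 change was 0.011 (SE 0.031, limma adjusted p = 0.774) in flu1-5 ex1 and -0.057 (SE 0.047, limma adjusted p = 0.298) in flu1-1 ex1. Light and dark libraries of PSAD1 overlapped in both lines.

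The photosystem II genes of the set encode the extrinsic proteins of the oxygen-evolving complex (PSBO, PSBP and PSBQ, with PSBR at their docking site) and small membrane subunits (PSBW, PSBX, PSBY and PSBTN). Of 10 genes, 8 were lower in light in flu1-5 ex1 (median -0.25) and 9 in flu1-1 ex1 (median -0.30), and none was higher. With quantile normalization the fall flips for PSBO1, PSBW and PSBX in flu1-5 ex1 and for PSBQ1, PSBR and PSBX in flu1-1 ex1. The largest fall in both lines was that of PSBQ2 (AT4G05180), which averaged 923 ± 13.1 TPM in flu1-5 ex1 light and 1239 ± 38.7 TPM in flu1-5 ex1 dark (SD, n = 3 each). In flu1-1 ex1 PSBQ2 averaged 1137 ± 20.4 TPM in light and 1536 ± 10.7 TPM in dark (SD, n = 3 each). Its log2 change was -0.42 (SE 0.029, limma adjusted p = 2.07e-06) in flu1-5 ex1 and -0.43 (SE 0.022, limma adjusted p = 2.43e-07) in flu1-1 ex1, nearly the same size in both. PSBR (AT1G79040), the most abundant member outside the RBCS genes, was called in flu1-1 ex1 at -0.24 (SE 0.038, limma adjusted p = 0.000498), where it flips with quantile normalization, and not in flu1-5 ex1 at -0.045 (SE 0.048, limma adjusted p = 0.433). PSBY (AT1G67740) was called in neither line. PSBY had 430.4, 576 and 393 TPM in flu1-5 ex1 light and 538, 363 and 402 TPM in dark. It had 411, 384 and 404 TPM in flu1-1 ex1 light and 451, 498 and 395 TPM in dark. Its log2 change was 0.10 (SE 0.19, limma adjusted p = 0.656) in flu1-5 ex1 and -0.16 (SE 0.079, limma adjusted p = 0.107) in flu1-1 ex1. Relative to the mean level, PSBY replicates spread more widely than those of any other member in flu1-5 ex1 light.

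Among the electron carriers, the 2 plastocyanin genes differed most. Plastocyanin is the copper protein that carries electrons to photosystem I. PETE1 (AT1G76100), the scarcer copy, had 86.3, 94.8 and 89.8 TPM in flu1-5 ex1 light, against 189, 191 and 184 TPM in dark. PETE1 levels in flu1-1 ex1 were 110.2, 111 and 103 TPM in light, against 215, 227 and 216 TPM in dark. The log2 change of PETE1 was -1.05 (SE 0.039, limma adjusted p = 3.82e-08) in flu1-5 ex1 and -1.02 (SE 0.039, limma adjusted p = 4.14e-08) in flu1-1 ex1. PETE1 was at least 2-fold lower in light in both lines, and its groups did not overlap. PETE2 (AT1G20340), the abundant copy, had 1891, 1904 and 2029 TPM in flu1-5 ex1 light, against 2055, 2152 and 2110.5 TPM in dark. PETE2 values in flu1-1 ex1 were 1958, 1877 and 1675 TPM in light and 1931, 2114 and 1941 TPM in dark. It was called in flu1-5 ex1, at -0.12 (SE 0.033, limma adjusted p = 0.0121), and was not called in flu1-1 ex1, at -0.12 (SE 0.062, limma adjusted p = 0.112), and its sign flips in both lines with quantile normalization. In flu1-1 ex1 its light and dark libraries overlapped.

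FNR2 (AT1G20020), a leaf ferredoxin-NADP reductase, was lower in light in both lines, by 0.22 on the log2 scale in flu1-5 ex1 (limma adjusted p = 0.000686) and by 0.37 in flu1-1 ex1 (limma adjusted p = 1.72e-06). FNR1 (AT5G66190), the other leaf reductase, was called in flu1-1 ex1 at -0.18 (SE 0.022, limma adjusted p = 7.88e-05) and not in flu1-5 ex1 at -0.072 (SE 0.035, limma adjusted p = 0.104). PETC (AT4G03280), the Rieske protein of cytochrome b6f, was called in flu1-1 ex1 at -0.15 (SE 0.032, limma adjusted p = 0.00274), where it flips with quantile normalization, and not in flu1-5 ex1 at -0.092 (SE 0.040, limma adjusted p = 0.0723). FD2 (AT1G60950), the main leaf ferredoxin, was called in flu1-5 ex1 at -0.13 (SE 0.043, limma adjusted p = 0.0271) and not in flu1-1 ex1 at -0.12 (SE 0.056, limma adjusted p = 0.0894), and its sign flips in both lines with quantile normalization. That call was lost without either of light replicates 1 and 3 or dark replicates 1 and 3 of flu1-5 ex1, with limma adjusted p up to 0.0931. PETE1 and FNR2 were thus the carriers called lower in both lines, and each of the other 4 was called in 1 line, with no called difference between the lines in its response.

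Both ATP synthase genes went the other way. ATPD (AT4G09650), the delta subunit, had 598, 629 and 597 TPM in flu1-5 ex1 light, against 503, 516 and 516 TPM in dark. ATPD levels in flu1-1 ex1 were 622, 615 and 587 TPM in light, against 465, 462 and 452 TPM in dark. ATPD rose by 0.25 (SE 0.030, limma adjusted p = 8.12e-05) on the log2 scale in flu1-5 ex1 and by 0.40 (SE 0.029, limma adjusted p = 2.37e-06) in flu1-1 ex1. Light libraries were above dark libraries in both lines, and the light levels of the lines overlapped. ATPC1 (AT4G04640), the gamma subunit, was called higher at 0.074 (SE 0.026, limma adjusted p = 0.0305) in flu1-5 ex1 and at 0.15 (SE 0.030, limma adjusted p = 0.00189) in flu1-1 ex1. Both ATPC1 calls were lost under median-ratio scaling, at 0.0031 and 0.0098 on the log2 scale, and the call in flu1-5 ex1 also without light replicate 1 or 3 or dark replicate 2 or 3, with limma adjusted p up to 0.11.

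The 4 RBCS genes encode the small subunit of Rubisco and include the most abundant transcripts of the set. RBCS1A (AT1G67090) had 16002, 15649 and 16496 TPM in flu1-5 ex1 light, against 17855, 17783 and 17784 TPM in dark. RBCS1A levels in flu1-1 ex1 were 15399, 15882 and 15761 TPM in light and 15993, 16734 and 15624 TPM in dark. It was called lower in flu1-5 ex1, at -0.15 (SE 0.023, limma adjusted p = 0.000427), and was not called in flu1-1 ex1, at -0.039 (SE 0.027, limma adjusted p = 0.222), where its sign flips with quantile normalization. Its light and dark libraries overlapped in flu1-1 ex1 only. RBCS1B (AT5G38430) had 5726, 5538 and 5913 TPM in flu1-5 ex1 light, against 4742, 4816 and 4475 TPM in dark. RBCS1B values in flu1-1 ex1 were 4591, 4431 and 4377 TPM in light, against 3188, 3329 and 3122 TPM in dark. RBCS1B rose by 0.29 (SE 0.035, limma adjusted p = 7.95e-05) on the log2 scale in flu1-5 ex1 and by 0.48 (SE 0.029, limma adjusted p = 8.80e-07) in flu1-1 ex1. It was the only RBCS gene called higher in light in either line.

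RBCS2B (AT5G38420) had 7843, 7646 and 7848 TPM in flu1-5 ex1 light, against 8401, 8678 and 8272 TPM in dark. RBCS2B levels in flu1-1 ex1 were 6380.1, 6204 and 6152 TPM in light, against 6571, 6829.8 and 6554 TPM in dark. It was lower in light, at -0.12 (SE 0.025, limma adjusted p = 0.00245) in flu1-5 ex1 and at -0.091 (SE 0.024, limma adjusted p = 0.00813) in flu1-1 ex1, where its direction flips with quantile normalization. Every flu1-5 ex1 library of RBCS2B was above every flu1-1 ex1 library. RBCS3B (AT5G38410) had 12135, 11653 and 12401 TPM in flu1-5 ex1 light, against 13744, 13454 and 12784 TPM in dark. RBCS3B values in flu1-1 ex1 were 10343, 10296 and 9948 TPM in light, against 11704, 12401 and 11563 TPM in dark. Its log2 change was -0.14 (SE 0.033, limma adjusted p = 0.00449) in flu1-5 ex1, where it flips with quantile normalization, and -0.22 (SE 0.030, limma adjusted p = 0.000147) in flu1-1 ex1. The light libraries were the lower ones in each line. With quantile normalization the median log2 change of the RBCS genes and RCA was 0.13 in flu1-5 ex1 and 0.28 in flu1-1 ex1, where it was -0.12 and -0.091 without it. The RBCS copies are close in sequence: 56.3% of the 31-base stretches of RBCS1B, 62.9% of RBCS2B, 74.9% of RBCS3B and 95.4% of RBCS1A are unique to the gene, so the estimates could be split between copies and the values of single copies are uncertain.

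RCA (AT2G39730), which keeps Rubisco active, had 2989.6, 2923 and 2957 TPM in flu1-5 ex1 light, against 2718, 2669 and 2703 TPM in dark. RCA levels in flu1-1 ex1 were 2386, 2439 and 2367 TPM in light, against 2587, 2599 and 2547 TPM in dark. Its log2 change was 0.13 (SE 0.022, limma adjusted p = 0.000588) in flu1-5 ex1 and -0.10 (SE 0.021, limma adjusted p = 0.00182) in flu1-1 ex1, where it flips with quantile normalization. The tables list a different transcript of RCA in each line, so the lines were not compared for RCA and the opposite directions were not tested against each other.

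The second comparison asked whether the response to light differed between the lines, as the change in flu1-5 ex1 minus the change in flu1-1 ex1 over all 12 libraries. Of the 45 members with the same listed transcript in both tables, 15 had a higher and 3 a lower log2 change in flu1-5 ex1, where 29.6% of all genes were called, 11.3% higher and 18.3% lower. The median difference of the members was 0.099, beside -0.056 over all genes tested. Under median-ratio scaling the split was 23 higher and 0 lower, where 2618 of all 17830 genes tested were higher and 2254 lower. With quantile normalization it was 11 higher and 6 lower, where 2121 of all genes were higher and 2892 lower. The 15 were LHCA1, LHCA2, LHCA3, LHCA4, LHCB4.2, LHCB5, LHCB6, PSAF, PSAK, PSAL, PSAO, PSBP1, PSBR, PSBW and FNR2, and PSAK, PSAL, PSBP1 and PSBR flip with quantile normalization. For a gene that fell in both lines, a positive difference is a smaller fall in flu1-5 ex1. By role, 4 of 6 photosystem I antenna genes, 3 of 5 minor antenna genes, 4 of 12 photosystem I subunits, 3 of 10 photosystem II subunits and 1 of 6 electron carriers were among them.

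LHCA4 had the largest difference, 0.55 (SE 0.050, limma adjusted p = 3.58e-06), followed by LHCA1 at 0.35 (SE 0.034, limma adjusted p = 6.79e-06) and LHCB5 at 0.33 (SE 0.027, limma adjusted p = 1.48e-06). Their falls are given above, and in each case the drop in flu1-1 ex1 was the deeper one. The 3 members with a lower log2 change in flu1-5 ex1 were RBCS1B at -0.18 (SE 0.048, limma adjusted p = 0.0119), ATPD at -0.15 (SE 0.041, limma adjusted p = 0.0128) and RBCS1A at -0.11 (SE 0.037, limma adjusted p = 0.0366). RBCS1B and ATPD rose less in flu1-5 ex1 than in flu1-1 ex1. None of these 3 was called under median-ratio scaling or at an adjusted p under 0.01. No member passed both the test and a 2-fold difference in response, where 2.03% of all genes did so upward and 0.796% downward. PETE1, at -0.035 (SE 0.057, limma adjusted p = 0.686), and PSAD2, at 0.10 (SE 0.046, limma adjusted p = 0.117), did not pass the test. The calls of PSAL, PSBR, FNR2 and RBCS1A were lost without some 1 library: PSAL without flu1-1 ex1 dark replicate 2 or flu1-5 ex1 light replicate 3, and the other 3 without each of 7 to 9 of the 12 libraries, with limma adjusted p up to 0.108.

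The lines were then compared directly in each condition. In light, 16 of 45 members were lower and 12 higher in flu1-5 ex1 than in flu1-1 ex1, where 39.1% of all genes were called, 21% lower and 18.1% higher. In dark, 23 members were lower and 10 higher, where 20.4% were called, 5.68% lower and 14.7% higher. The median difference of the members was -0.0035 in light, beside -0.020 over all genes, and -0.14 in dark, beside 0.038 over all genes. No member was called with a 2-fold difference between the lines, where 3.1% of all genes were so higher and 0.606% lower in light, and 0.897% higher and 0.163% lower in dark. The split of calls was 9 lower and 12 higher in light under median-ratio scaling, where 3310 of all 17830 genes tested were lower and 3546 higher. In dark it was 18 lower and 15 higher with quantile normalization, where 1483 of all genes were lower and 1832 higher. In light the lower count fell to 10 without flu1-1 ex1 light replicate 1, to 10 without flu1-1 ex1 light replicate 2 and to 9 without flu1-5 ex1 light replicate 1. Of all genes tested, 3172 of 17821, 3355 of 17811 and 3205 of 17813 were lower in these 3 settings. The light calls of LHCB4.1, PSAD1, PSAE1, PSAE2, PSAH1, PSAH2, PSAL, PSBO2, PSBQ1, PSBR and PETC were each lost without at least 2 single light libraries, and those of PSAH1, PSAL and PSBQ1 also without some dark library, with limma adjusted p up to 0.206. The dark call of PSAH1 was lost without flu1-1 ex1 dark replicate 2 or flu1-5 ex1 dark replicate 1 or 3, with limma adjusted p up to 0.0825. The differences in light and in dark come from different libraries, but their tests share an estimate of spread over all 12 libraries, so the calls are not independent. In both conditions 16 members were lower in flu1-5 ex1 and 7 (LHCA5, LHCA6, LHCB4.3, FNR1, RBCS1B, RBCS2B and RBCS3B) higher. The number of all genes called alike in light and dark was not counted, so these counts only describe the members. A further 7 (LHCA2, LHCB4.2, PSAG, PSAK, PSAO, PSBP1 and PSBW) were not called in light and were lower in dark.

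Genes of photosystem I and the minor antenna made up most of those lower in flu1-5 ex1. In light, 3 of 6 photosystem I antenna genes, 3 of 5 minor antenna genes and 8 of 12 photosystem I subunits were lower, with medians of -0.14, -0.085 and -0.10. Of these light calls, those of LHCB4.1, PSAD1, PSAE1, PSAE2, PSAH1, PSAH2 and PSAL were lost without some single libraries, as given above. In dark, 4 of 6, 4 of 5 and 11 of 12 of the same genes were lower, with medians of -0.40, -0.28 and -0.23. The largest negative differences in light were PSAD2 at -0.40 (SE 0.033, limma adjusted p = 4.33e-07), LHCA1 at -0.40 (SE 0.024, limma adjusted p = 1.96e-08) and LHCA4 at -0.34 (SE 0.035, limma adjusted p = 5.04e-06). In dark they were LHCA4 at -0.89 (SE 0.035, limma adjusted p = 1.56e-09), LHCA1 at -0.75 (SE 0.024, limma adjusted p = 1.96e-10) and LHCB6 at -0.58 (SE 0.043, limma adjusted p = 5.33e-07). For LHCA1 and LHCA4 the flu1-5 ex1 libraries lay below all flu1-1 ex1 libraries of the same condition. LHCA5 and LHCA6 stood against the other antenna genes of photosystem I, higher in flu1-5 ex1 by 0.18 and 0.20 on the log2 scale in light and by 0.22 and 0.11 in dark. The dark call of LHCA6 was lost under each of the 3 other scalings, with no filter on low genes and without any of 9 single libraries, with limma adjusted p up to 0.184.

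**Figure D3:**
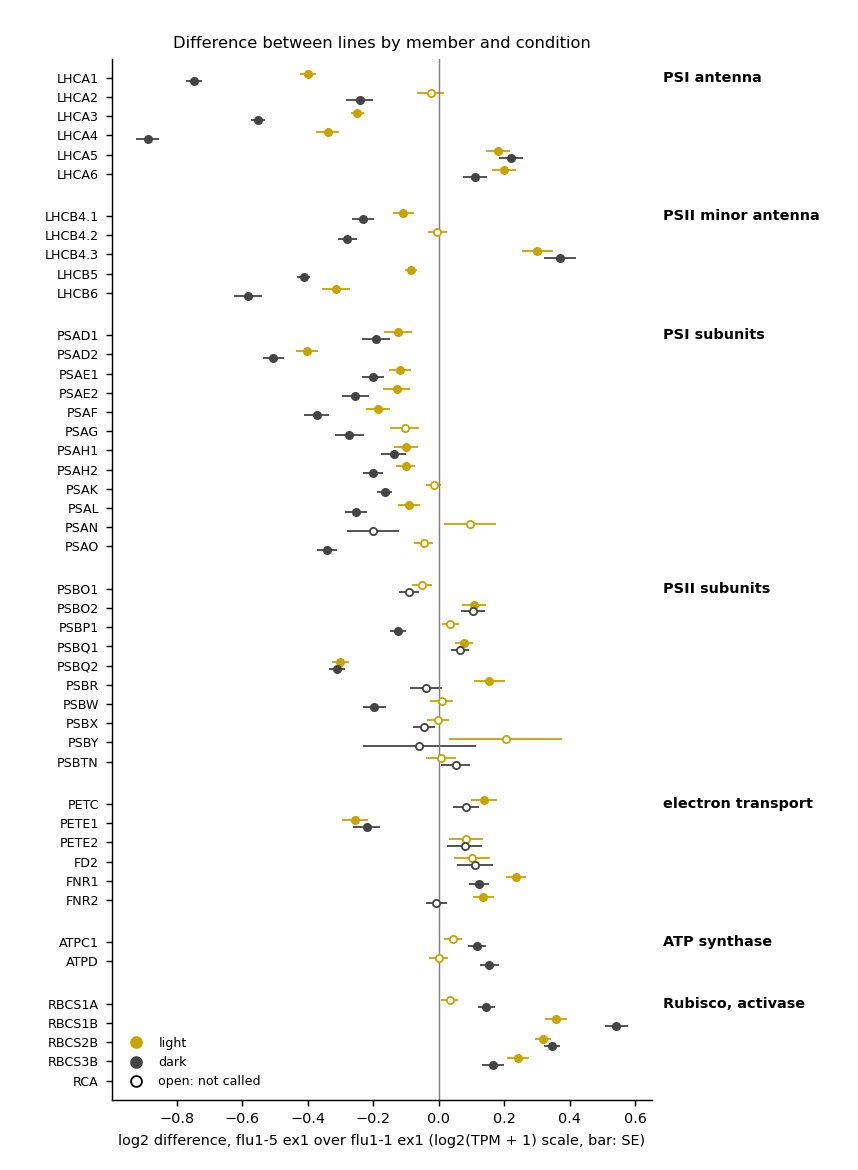
Log2 difference, flu1-5 ex1 over flu1-1 ex1, of each of 45 members on the log2(TPM + 1) scale (x axis), grouped by role down the page, in light (yellow) and in dark (dark grey), with bars for the standard error; filled points passed adjusted p under 0.05 in limma, and RCA has no point. Photosystem I genes lie mostly left of 0, with LHCA4 in dark at -0.89, and RBCS1B in dark lies farthest right at 0.54; PSAE2, PSBR and PSBX in light and PSBR in dark change sign with quantile normalization.

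Rubisco genes went the other way. In light 3 of the 4 RBCS genes, all but RBCS1A, were higher in flu1-5 ex1, and in dark all 4 were. RBCS1B differed most, by 0.36 (SE 0.034, limma adjusted p = 2.19e-06) in light and 0.54 (SE 0.034, limma adjusted p = 1.11e-07) in dark, and RBCS2B by 0.32 (SE 0.024, limma adjusted p = 2.58e-07) in light and 0.35 (SE 0.024, limma adjusted p = 3.59e-07) in dark. With quantile normalization RBCS2B was no longer called in light and RBCS3B no longer in dark. LHCB4.3 was higher in flu1-5 ex1 at 0.30 (SE 0.049, limma adjusted p = 0.000263) in light and 0.37 (SE 0.049, limma adjusted p = 0.000111) in dark. The sum of RBCS genes and RCA was 4.67% to 4.90% of listed TPM in flu1-5 ex1 light, against 4.15% to 4.21% in flu1-1 ex1 light. In dark it was 4.94% to 5.09% in flu1-5 ex1, against 4.21% to 4.48% in flu1-1 ex1, so the lines did not overlap in either condition. This sum includes RCA, whose listed transcript differs between the lines, and a sum of the RBCS genes alone was not made.

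Copies of one protein were compared by the share of one copy in the summed TPM of its family, a measure that does not change when a library is multiplied by a constant. For 9 families and 2 contrasts, an exact stratified permutation test over the 12 libraries was used (400 arrangements, two-sided, smallest possible p 0.005, Benjamini-Hochberg over the 18 tests). PSAD1 made up 86.2%, 86.3% and 86.3% of PSAD in flu1-5 ex1 light, against 76.9%, 77.3% and 78.0% in flu1-5 ex1 dark. In flu1-1 ex1 the PSAD1 share was 84.0%, 84.4% and 82.9% in light, against 73.6%, 73.8% and 72.8% in dark. Averaged over the lines it was 9.58 percentage points higher in light (exact permutation adjusted p = 0.00818). The mean PETE1 share of plastocyanin was 5.01% in light and 9.06% in dark, a difference of -4.05 percentage points (exact permutation adjusted p = 0.00818). In both families the more abundant copy gained share in every light library.

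LHCB4.1 (83.3% of LHCB4 in light, 78.9% in dark), PSBQ1 (63.1% of PSBQ in light, 60.4% in dark) and FNR1 (49.2% of the 2 FNR genes in light, 46.4% in dark) also had a larger share in light, with the same exact permutation adjusted p of 0.00818. PSBO1 and PSAH1 had a smaller share in light, with differences of -1.905 and -1.86 points (exact permutation adjusted p = 0.0138 for both). The PSAE1 share of PSAE (59.4% in light, 59.5% in dark, exact permutation adjusted p = 0.87) and the RBCS1A share of RBCS (40.7% in light, 41.4% in dark, adjusted p = 0.204 by the same test) were not called. Although RBCS1A was not called, the scarcer RBCS1B made up 13.7%, 13.7% and 13.9% of RBCS in flu1-5 ex1 light, against 10.6%, 10.8% and 10.3% in flu1-5 ex1 dark. In flu1-1 ex1 RBCS1B made up 12.5%, 12.04% and 12.1% in light, against 8.51%, 8.47% and 8.47% in dark, a share given here without a test.

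Between the lines, PSBQ1 had the largest difference in share, at 64.8% of PSBQ in flu1-5 ex1, against 58.7% in flu1-1 ex1 (6.16 points, exact permutation adjusted p = 0.00818). The RBCS1A share was 39.4% in flu1-5 ex1, against 42.7% in flu1-1 ex1, and the PSAD1 share was 81.8% in flu1-5 ex1, against 78.6% in flu1-1 ex1 (exact permutation adjusted p = 0.00818 for both). PSBO1 and PETE1 had smaller shares in flu1-5 ex1, with differences of -2.24 and -1.41 points, and FNR1 a larger one by 1.98 points, with the same adjusted p. The shares of LHCB4.1 (exact permutation adjusted p = 0.09), PSAE1 (0.487) and PSAH1 (0.309) were not called between the lines. No call of a share changed with the log2 ratio of copies in place of the share, or without any single library.

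**Figure D4:**
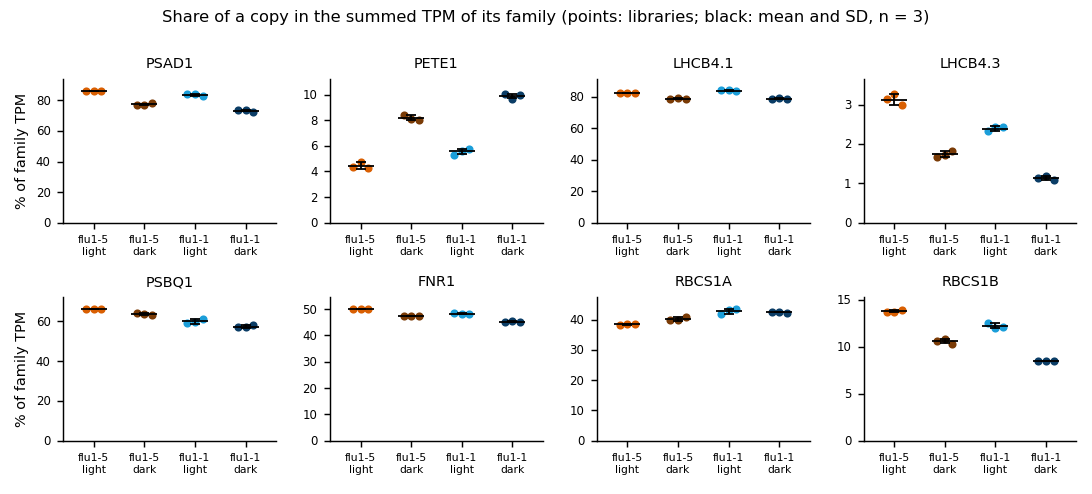
Share of 8 gene copies in the summed TPM of their family, in percent (y axis, from 0), in each library (points), with the mean and SD of 3 libraries in black; groups run from flu1-5 ex1 light to flu1-1 ex1 dark. The PSAD1 share is between 82.9% and 86.3% in light and between 72.8% and 78.0% in dark, and the PETE1 share is lower in light than in dark in both lines.

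Other genes of carbon fixation, electron transport and chloroplast regulation were set beside the members. Of 17 Calvin cycle genes, 7 were lower and 3 higher in light in flu1-5 ex1 and 7 lower and 4 higher in flu1-1 ex1, with medians of -0.075 and -0.035, which flip to 0.037 and 0.039 with quantile normalization. Over all genes tested, 29.3% were lower and 38.4% higher in flu1-5 ex1, and 28.6% lower and 44% higher in flu1-1 ex1. CP12-1, a linker protein that switches the cycle off in the dark, had 1043, 1066 and 1071 TPM in flu1-5 ex1 light, against 1219.7, 1208 and 1402 TPM in dark. CP12-1 had 1031, 1026 and 986 TPM in flu1-1 ex1 light, against 1243, 1215 and 1223 TPM in dark. GAPA2, a subunit of glyceraldehyde-3-phosphate dehydrogenase, had 909, 948 and 964 TPM in flu1-5 ex1 light, against 1063, 1130.4 and 1158 TPM in dark, and 901, 921 and 887 TPM in flu1-1 ex1 light, against 1119, 1088 and 1076 TPM in dark. These 2 were the largest falls of the list in both lines, from -0.28 (GAPA2 in flu1-1 ex1) to -0.25 (GAPA2 in flu1-5 ex1) on the log2 scale. Of the 3 plastid aldolase genes, FBA1 and FBA3 rose in both lines and FBA2, the most abundant, was called in neither, at -0.075 in flu1-5 ex1 and 0.0092 in flu1-1 ex1 on the log2 scale. FBA3 had 126, 126 and 131 TPM in flu1-5 ex1 light, against 103, 109.5 and 102 TPM in dark, and 143, 147 and 140.2 TPM in flu1-1 ex1 light, against 113, 112 and 107 TPM in dark. FBA1 had 472, 446 and 509 TPM in flu1-5 ex1 light, against 363, 386 and 365 TPM in dark, and 469.8, 483 and 426 TPM in flu1-1 ex1 light, against 351, 369.9 and 377 TPM in dark. RPI3, a ribose-phosphate isomerase, had 513, 519 and 517 TPM in flu1-5 ex1 light, against 453, 430.2 and 463 TPM in dark, and 522, 483 and 467 TPM in flu1-1 ex1 light, against 361, 376 and 354 TPM in dark. Between the lines, 7 of the 17 were higher and 1 lower in flu1-5 ex1 in light, and 11 were higher and none lower in dark. The shares over all genes tested were 18.1% higher and 21% lower in light, and 14.7% higher and 5.68% lower in dark.

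Of 8 other electron transport genes, 3 were higher and 3 lower in light in flu1-5 ex1, and 3 higher and 2 lower in flu1-1 ex1. These counts are near the shares over all genes tested, 38.4% higher and 29.3% lower in flu1-5 ex1, and 44% and 28.6% in flu1-1 ex1. They are thus no result about the list. FD1, the second leaf ferredoxin, had 756, 777 and 803 TPM in flu1-5 ex1 light, against 306, 306 and 291 TPM in dark. FD1 had 829.8, 865 and 794 TPM in flu1-1 ex1 light, against 256, 273 and 259 TPM in dark, with a log2 change of 1.37 (SE 0.033, limma adjusted p = 2.59e-09) in flu1-5 ex1 and 1.65 (SE 0.038, limma adjusted p = 1.69e-09) in flu1-1 ex1. FD1 was thus over 2-fold higher in light, whereas the main ferredoxin FD2 moved little. PGR5, a protein of cyclic electron flow, had 158, 160.1 and 159 TPM in flu1-5 ex1 light, against 112, 118 and 119 TPM in dark, and 139, 151 and 148 TPM in flu1-1 ex1 light, against 104, 101 and 98.2 TPM in dark. FD3, the root-type ferredoxin, had 65.9, 66.2 and 69.3 TPM in flu1-5 ex1 light, against 55.1, 56.7 and 56.8 TPM in dark, and 77.5, 76.7 and 71.02 TPM in flu1-1 ex1 light, against 54.3, 50.1 and 48.5 TPM in dark. Both were higher in all light libraries. The largest called falls were ATPC2 in flu1-5 ex1 (7.602, 7.52 and 7.33 TPM in light, against 10.4, 9.89 and 8.84 TPM in dark), PGRL1A in both lines (-0.13 and -0.23) and ATPG in flu1-1 ex1 (1266, 1246 and 1182 TPM in light, against 1337, 1404 and 1336 TPM in dark). PGRL1A, the partner of PGR5, had 244, 242 and 250.1 TPM in flu1-5 ex1 light, against 266, 277 and 260.2 TPM in dark, and 218, 230.4 and 216 TPM in flu1-1 ex1 light, against 258, 258 and 263 TPM in dark.

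GLK1, GLK2 and SIG5 rose by more than any of the 46 members changed in either line. GLK1 and GLK2 are transcription factors that activate nuclear photosynthesis genes, and SIG1 to SIG6 are nuclear-encoded sigma factors of the plastid RNA polymerase. Of these 8, 6 were higher and 1 lower in light in flu1-5 ex1, and 7 higher and 1 lower in flu1-1 ex1. Among all genes tested, 38.4% were higher and 29.3% lower in flu1-5 ex1, and 44% and 28.6% in flu1-1 ex1. SIG5 had 138, 137 and 135 TPM in flu1-5 ex1 light, against 4.297, 4.36 and 5.25 TPM in dark. SIG5 had 117, 122 and 124 TPM in flu1-1 ex1 light, against 3.44, 3.53 and 3.35 TPM in dark, and its log2 change was 4.61 (SE 0.067, limma adjusted p = 1.60e-10) in flu1-5 ex1 and 4.78 (SE 0.045, limma adjusted p = 2.07e-11) in flu1-1 ex1. Its light and dark libraries were far apart in both lines. GLK1 had 153, 141 and 154 TPM in flu1-5 ex1 light, against 29.3, 30.1 and 31.2 TPM in dark. GLK1 had 169.9, 176 and 166 TPM in flu1-1 ex1 light, against 27.5, 27.5 and 25.9 TPM in dark, and its log2 change was 2.27 (SE 0.044, limma adjusted p = 7.29e-10) in flu1-5 ex1 and 2.62 (SE 0.039, limma adjusted p = 1.49e-10) in flu1-1 ex1. GLK2 changed by 1.96 in flu1-5 ex1 and 2.17 in flu1-1 ex1 on the same scale. SIG3 was the one that fell, with 37.6, 39.5 and 35.3 TPM in flu1-5 ex1 light, against 51.9, 43.3 and 47.97 TPM in dark, and 35.97, 34.98 and 34.8 TPM in flu1-1 ex1 light, against 47.2, 49.5 and 46.3 TPM in dark.

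Markers of other cell types moved with the treatment too. The summed level of 6 markers of other shoot cells was 277 to 293 TPM in flu1-5 ex1 light, against 384 to 394 TPM in flu1-5 ex1 dark, and 346 to 355 TPM in flu1-1 ex1 light, against 380.1 to 404 TPM in flu1-1 ex1 dark. They did not move together: in flu1-5 ex1 2 of the 6 were higher and 3 lower in light, and in flu1-1 ex1 3 were higher and 3 lower. The shares of all genes tested were 38.4% higher and 29.3% lower in flu1-5 ex1, and 44% and 28.6% in flu1-1 ex1. The guard cell genes FAMA and MYB60 were higher, FAMA with 30.8, 30.5 and 33.1 TPM in flu1-5 ex1 light, against 23.1, 22.2 and 24.2 TPM in dark, and 25.1, 26.9 and 26.7 TPM in flu1-1 ex1 light, against 19.99, 19.3 and 20.6 TPM in dark. MYB60 had 19.1, 18.1 and 19.1 TPM in flu1-5 ex1 light, against 14.3, 14.7 and 14.7 TPM in dark, and 16.8, 20.4 and 15.4 TPM in flu1-1 ex1 light, against 11.9, 13.1 and 12.4 TPM in dark. The phloem gene SUC2 was lower, with 68.4, 75.2 and 77.3 TPM in flu1-5 ex1 light, against 110.2, 110.3 and 113 TPM in dark, and 66.6, 68.9 and 68.1 TPM in flu1-1 ex1 light, against 112, 112 and 109 TPM in dark. FAMA and MYB60 thus moved opposite to SUC2 in both lines. The epidermal gene PDF1 had 103, 107 and 104 TPM in flu1-5 ex1 light, against 177, 179 and 168 TPM in dark, and 179, 173 and 169 TPM in flu1-1 ex1 light, against 199, 194 and 178 TPM in dark. ATML1, also of the epidermis, was called lower in flu1-5 ex1 light and higher in flu1-1 ex1 light, at -0.18 and 0.17 on the log2 scale. APL, also of phloem, was not called in flu1-5 ex1, at -0.17 on the log2 scale, and was called in flu1-1 ex1, with 11.6, 13.00 and 11.2 TPM in light, against 13.3, 15.5 and 13.6 TPM in dark. Among root markers, CASP2 stood at 0.585, 0.291 and 0.659 TPM in flu1-5 ex1 light, against 2.37, 2.33 and 2.34 TPM in dark, and 0.719, 0.999 and 0.7302 TPM in flu1-1 ex1 light, against 2.25, 2.52 and 2.903 TPM in dark. It passed the filter of 1 TPM only through its dark libraries, so no call is read from it. The part of these cell types in the changes of the members was not tested.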

How the data were processed

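The authors deposited 1 table per line with a TPM value per gene and library, a fold (ratio of light to dark) and a p-value. The test behind that p-value is not given in the sources used here. The submitters' processing notes name kallisto 0.46.2, sleuth 0.30.0 and TAIR10, without role or order. TPM was analysed as log2(TPM + 1) with limma 3.58.1 (trend and robust variance, statmod 1.5.0, R 4.3.3), after a filter of a mean of at least 1 TPM, with Benjamini-Hochberg adjustment over all genes tested. Light and dark were compared within a line over 6 libraries. Lines were compared over 12 libraries and only for the 26684 genes whose listed transcript is the same in both tables, since 971 differ, RCA among them. The lines' tables were deposited separately, and whether they were normalized together is not given.

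Quantile, median-ratio and non-member scaling, other filters and pseudocounts, a replicate block and leaving out each library were tried. Copy shares were tested by exact permutation. The scripts were tested on simulated data. Groups follow the library descriptions, since the genotype field names 1 line for all. The members and lists were chosen with earlier results of these data known. Values in every library are given for the 3 largest called rises and falls of each comparison, the RBCS, PETE, LHCB4 and PSAD genes, members called in neither line, FLU, and the called genes with the 2 largest rises and falls of each list and line. RCA and PSAN were added after their values were seen. Upstream sequences and coordinates come from RefSeq's TAIR10.1 and not from the deposited tables, which hold none; 31-base stretches were compared between RefSeq transcripts.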

Additional observations from a re-analysis of the deposited data

Results flagged for a closer look

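For 18 of 45 members the response to light differed between the lines in a test of the difference itself (limma on 12 libraries, adjusted p under 0.05), beside 29.6% of all genes tested. Values are the log2 change in flu1-5 ex1 minus that in flu1-1 ex1. Among photosystem I antenna genes the difference was 0.35 for LHCA1, 0.22 for LHCA2, 0.30 for LHCA3 and 0.55 for LHCA4. Among minor antenna genes it was 0.27 for LHCB4.2, 0.33 for LHCB5 and 0.27 for LHCB6. Among photosystem I subunits it was 0.19 for PSAF, 0.15 for PSAK, 0.16 for PSAL and 0.30 for PSAO, with PSAK and PSAL changing sign under quantile normalization. Among photosystem II subunits it was 0.16 for PSBP1, 0.19 for PSBR and 0.21 for PSBW, with PSBP1 and PSBR changing sign under quantile normalization. FNR2 differed by 0.14. The difference was negative for ATPD at -0.15, RBCS1A at -0.11 and RBCS1B at -0.18, and these 3 were not called under median-ratio scaling.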

How the results depend on the processing

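With 3 libraries a group and no read numbers, precision is limited by the spread between libraries. Counts of members called, higher and lower, were set beside the main ones. With quantile normalization they were 8 higher in flu1-5 ex1, 12 higher and 24 lower in flu1-1 ex1, and 6 lower for the difference between responses. Under median-ratio scaling they were 23 higher and 0 lower for that difference and 9 lower for the lines in light. Counts over all genes under these 2 scalings are given with the main results. At an adjusted p under 0.01 they were 0 lower for the difference and 9 lower for the lines in light. Requiring at least 2-fold left 0 higher and 1 lower in flu1-5 ex1, 0 higher and 4 lower in flu1-1 ex1, and 0 higher and 0 lower in each of the 3 comparisons between lines. Leaving out each library in turn gave 4 to 5 higher and 34 to 36 lower in flu1-5 ex1, 4 higher and 37 to 39 lower in flu1-1 ex1, 12 to 17 higher and 2 to 3 lower for the difference, 8 to 12 higher and 9 to 16 lower for the lines in light, and 9 to 10 higher and 22 to 24 lower in dark. Counts over all genes are not set beside those at an adjusted p under 0.01 or with libraries left out, which only describe the members. A change of sign was counted only where the member was called in the main setting or in the other one. All 26 such changes of sign came with quantile normalization, which by construction gives all libraries the same highest values, where many members stand. The log2 values there were, in flu1-5 ex1, LHCB4.1 at 0.018, PSAE2 at 0.028, PSBO1 at 0.018, PSBW at 0.14, PSBX at 0.14, PETE2 at 0.11, FD2 at 0.0075 and RBCS3B at 0.13. In flu1-1 ex1 they were PSBQ1 at 0.056, PSBR at 0.17, PSBX at 0.14, PETC at 0.17, PETE2 at 0.21, FD2 at 0.18, RBCS1A at 0.32, RBCS2B at 0.28 and RCA at 0.28. For the difference they were PSAK at -0.042, PSAL at -0.039, PSBP1 at -0.019, PSBQ2 at -0.17 and PSBR at -0.31, for the lines in light PSAE2 at 0.0062, PSBR at -0.13 and PSBX at 0.11 and for the lines in dark PSBR at 0.19. Other causes were not tested. The authors' deposited p-values under 0.05 gave 6 members higher and 38 lower in flu1-5 ex1, and 4 higher and 42 lower in flu1-1 ex1. All genes were not counted by these p-values, so these counts only describe the members. PSAD1, at a ratio of light to dark of 1.007, was among those higher in flu1-5 ex1.

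Replicate numbers are shared between groups, and light and dark libraries within a line were checked for common deviations. Correlations of deviations were small, from -0.044 to 0.139 for same numbers, against -0.078 to 0.058 for different numbers. The highest, 0.139, was that of replicate 3 of flu1-1 ex1. Same numbers were not compared across lines. The labels do not call the numbers pairs, and they were not taken as such in the main tests. With replicate number as a block, 4 members were higher and 36 lower in flu1-5 ex1, 4 and 38 in flu1-1 ex1, 16 and 2 for the difference, 12 and 14 for the lines in light, and 9 and 23 in dark. Of all genes tested with the block, 6802 of 18145 were higher and 5154 lower in flu1-5 ex1, and 7929 of 18042 and 5200 in flu1-1 ex1. Between lines, of 17830 genes, 1939 were higher and 3121 lower for the difference, 3170 and 3609 in light, and 2474 and 927 in dark. Of 227 member calls the block changed 12, with 5 gained and 7 lost. No block was fitted to the copy shares.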
